A study of Mus musculus with 2 samples.

Results

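Endocardial and cavity-lining spots of the infarcted neonatal mouse heart were examined in 1 tissue section of each of 2 genotypes. They were chosen by the measured values of 7 genes that mark the inner surface of the ventricle, Npr3, Cytl1, Plvap, Vwf, Pcp4, Cntn2 and Smoc1: in each section, the 50 spots with the largest share of their UMIs (unique molecular identifiers, each standing for 1 captured RNA molecule) from these genes were taken. This gave 100 of 1662 spots with at least 500 UMIs, 50 of 851 in the PD1 KO section and 50 of 811 in the PD1 Het section. Levels of the 7 genes in these spots are therefore given as a description, and the other spots of the same section are the comparison. The positions of the spots and the tissue images were not used here, so it was not checked that the chosen spots lie on the cavity border, and endocardial is used below as a name for spots chosen by these markers.

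The endocardium is the sheet of endothelial cells that lines the heart chambers and covers the trabeculae, the muscular ridges that face the cavity. It sends growth signals such as neuregulin to the muscle beneath it and gives rise to valve tissue in the embryo. Purkinje fibres, the fast-conducting muscle strands of the ventricular conduction system, run directly below it, so that a capture spot on the cavity border can hold endocardial cells, Purkinje cells, working muscle and blood.

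The assay was Visium, in which a tissue section lies on a slide printed with barcoded spots, each of which captures the RNA of the several cells above it. There was 1 transverse section from a PD1 KO mouse (PD1 -/-) and 1 from a PD1 Het mouse (PD1 +/-), both C57BL/6. Both animals had a myocardial infarct made by ligating the left anterior descending artery at postnatal day 2, and the hearts were taken 7 days later. Sections of 10 µm from 200 µm below the suture were permeabilised for 18 min. The labels name no promoter, Cre driver or cell type for the PD1 alleles, and every heart here carried at least 1 mutant allele and an infarct. PD-1 is an inhibitory receptor of T cells and is encoded by Pdcd1.

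Pdcd1 (chr1:94038305-94052553, build GRCm38 as for all positions here) was at 0 UMIs in the PD1 KO and the PD1 Het section. Its level could have been as high as 2.43 CPM in the PD1 KO and 3.91 CPM in the PD1 Het endocardial spots (CPM, a gene's UMIs per 1000000 UMIs of the same spots), so it gave no check of the genotype labels. Y-linked genes had 2900 UMIs in the PD1 KO section and 1 in the PD1 Het section, and Xist had 1 in PD1 KO and 541 in PD1 Het, so sex differed with genotype. The endocardial spots held 1235283 UMIs in PD1 KO and 766335 in PD1 Het, with medians of 25253 and 15015 UMIs per spot against 27274 and 15528 in the other spots of PD1 KO and PD1 Het. Mitochondrial genes took 14.9% of UMIs in PD1 KO and 18.6% in PD1 Het endocardial spots, against 15.9% and 26.1% in the other spots. The matrices shared 225 spot barcodes, of which 0 were chosen in both. Genotype, sex, animal, section and depth cannot be told apart. Spots of 1 section are not replicates, so no test was made, and the 95% intervals in parentheses cover counting error only.

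By the rule, the chosen spots hold the largest marker shares. In PD1 KO, the 50 spots held 704 marker UMIs, or 40.7% of those in the section, at 569.9 CPM against 46.0 CPM in the other spots. In PD1 Het, they held 674, or 54.8%, at 879.5 CPM against 46.1 CPM. The ranking had no gap at its end: the last spot taken had 317 CPM from 9 UMIs in PD1 KO and 465 CPM from 7 UMIs in PD1 Het, and the first spot left out had 310 CPM from 6 UMIs in PD1 KO and 458 CPM from 5 UMIs in PD1 Het. Because the ranking was by share, shallow spots could enter on few UMIs. The fewest marker UMIs in a chosen spot were 3 in PD1 KO and 1 in PD1 Het. Of the chosen spots, 0 in PD1 KO and 4 in PD1 Het had fewer than 5000 UMIs. The shallowest held 9384 UMIs in PD1 KO and 1383 in PD1 Het. No marker UMI was found in 312 of 801 other spots of PD1 KO and 457 of 761 of PD1 Het.

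**Figure D1:**
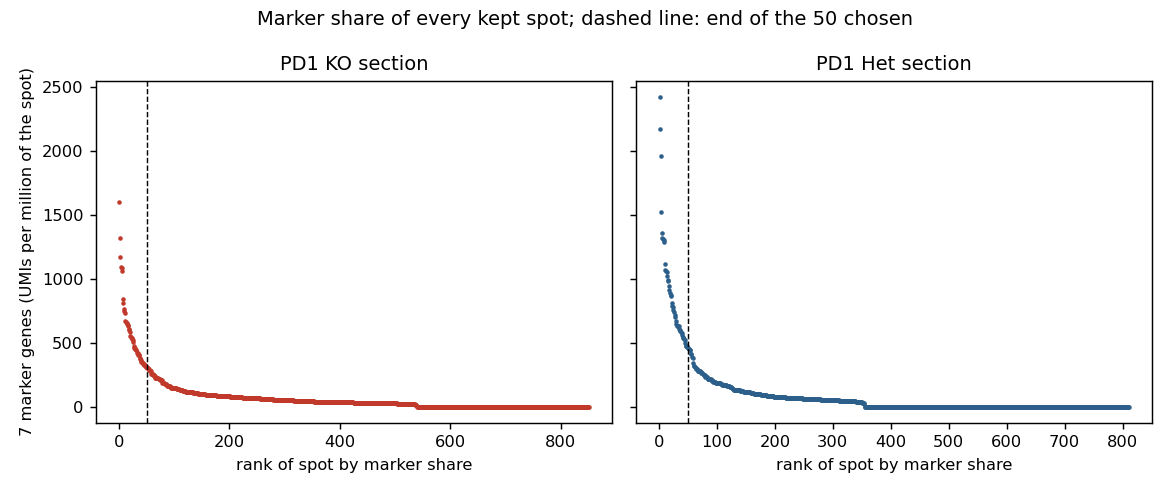
CPM of the 7 marker genes together in each spot, against the rank of the spot, PD1 KO on the left and PD1 Het on the right; the dashed line ends the 50 spots taken. The curves start at 1602 CPM in PD1 KO and 2427 CPM in PD1 Het and pass the line without a step, at 317 CPM in PD1 KO and 465 CPM in PD1 Het.

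Vwf (chr6:125546774-125686679), von Willebrand factor, the platelet-binding protein of large-vessel and endocardial endothelium, had 266 against 23.0 CPM in PD1 KO and 271 against 21.7 CPM in PD1 Het in endocardial against other spots, with a UMI in 46 of 50 spots in PD1 KO and 46 of 50 in PD1 Het. Plvap (chr8:71497765-71511752), the diaphragm protein of endothelial fenestrae and caveolae, had 90.7 against 10.2 CPM in PD1 KO and 138 against 7.30 CPM in PD1 Het, with a UMI in 42 of 50 spots in PD1 KO and 43 of 50 in PD1 Het. Npr3 (chr15:11839896-11907287), the clearance receptor that removes natriuretic peptides, had 97.1 against 6.28 CPM in PD1 KO and 137 against 7.22 CPM in PD1 Het, with a UMI in 35 of 50 spots in PD1 KO and 37 of 50 in PD1 Het. Most chosen spots of both hearts carried each of these 3 genes, which took part in the choice. Among the other spots, Vwf had a UMI in 309 of 801 in PD1 KO and 181 of 761 in PD1 Het, and Npr3 in 109 of 801 in PD1 KO and 76 of 761 in PD1 Het.

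The secreted markers were scarcer. Cytl1 (chr5:37735519-37739820), a cytokine-like protein, had 49.4 against 2.42 CPM in PD1 KO and 96.6 against 2.08 CPM in PD1 Het, with a UMI in 26 of 50 spots in PD1 KO and 25 of 50 in PD1 Het. Smoc1 (chr12:81026808-81186414), a calcium-binding matricellular protein, had 27.5 against 1.30 CPM in PD1 KO and 52.2 against 2.32 CPM in PD1 Het, with a UMI in 25 of 50 spots in PD1 KO and 24 of 50 in PD1 Het. Both took part in the choice and were found in about the same number of chosen spots of either heart.

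The other 2 markers are genes of the conduction system. Pcp4 (chr16:96467606-96525793), a calmodulin regulator of Purkinje fibres, had 23.5 against 1.79 CPM in PD1 KO and 116 against 2.57 CPM in PD1 Het, with a UMI in 16 of 50 spots in PD1 KO and 28 of 50 in PD1 Het. Cntn2 (chr1:132509427-132543256), contactin-2, an adhesion protein that marks the conduction system, had 16.2 against 1.03 CPM in PD1 KO and 67.9 against 2.82 CPM in PD1 Het, with a UMI in 12 of 50 spots in PD1 KO and 24 of 50 in PD1 Het. Of the marker UMIs in the chosen spots, Pcp4 made up 4.12% in PD1 KO and 13.2% in PD1 Het, and Vwf 46.6% in PD1 KO and 30.9% in PD1 Het. With each spot thinned to 10000 UMIs, which left out 12 shallower spots in PD1 KO and 52 in PD1 Het, and the choice repeated, Pcp4 had a UMI in 12 of 50 spots in PD1 KO and 19 of 50 in PD1 Het, and Cntn2 in 7 of 50 in PD1 KO and 17 of 50 in PD1 Het.

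The chosen spots held a median of 4 of the 7 markers in PD1 KO and 5 in PD1 Het, and each had a UMI of Vwf or Plvap. All 3 kinds of marker (Vwf or Plvap, then Npr3, Cytl1 or Smoc1, then Pcp4 or Cntn2) were found together in 18 spots in PD1 KO and 31 in PD1 Het. The largest part of the marker UMIs came from Vwf and Plvap in 32 spots in PD1 KO and 29 in PD1 Het, from Npr3, Cytl1 and Smoc1 in 15 in PD1 KO and 13 in PD1 Het, and from Pcp4 and Cntn2 in 1 in PD1 KO and 6 in PD1 Het, with 2 ties in each section.

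To read each marker in spots that it had not chosen, the ranking was repeated with that marker left out. Every left-out marker was higher in the spots chosen by the other 6 genes than in the rest of its section. The fold was 18.6 (11 to 31.4) in PD1 KO and 18.8 (11.3 to 31.3) in PD1 Het for Smoc1, 15 (10.2 to 22.0) in PD1 KO and 33.6 (21.7 to 52.9) in PD1 Het for Cytl1 and 11.2 (8.66 to 14.5) in PD1 KO and 16.4 (12.2 to 21.9) in PD1 Het for Npr3. It was 13.2 (6.77 to 25.1) in PD1 KO and 19.1 (12.2 to 30.0) in PD1 Het for Cntn2 and 7.43 (4.18 to 12.7) in PD1 KO and 39.6 (26.4 to 60.8) in PD1 Het for Pcp4. For Plvap it was 7.67 (6.02 to 9.72) in PD1 KO and 16.3 (12.2 to 21.9) in PD1 Het. Vwf had the smallest fold in both sections, 4.80 (4.03 to 5.69) in PD1 KO and 7.61 (6.23 to 9.25) in PD1 Het, with 34 of 50 spots in PD1 KO and 41 of 50 in PD1 Het shared with the full choice. Spots chosen by the 5 non-conduction markers held Pcp4 and Cntn2 together at a fold of 8.69 (5.68 to 13.1) in PD1 KO and 23.4 (17.6 to 31.3) in PD1 Het, and spots chosen by Pcp4 and Cntn2 held the other 5 at 4.23 (3.72 to 4.80) in PD1 KO and 7.34 (6.40 to 8.39) in PD1 Het. The spots chosen by Pcp4 and Cntn2 shared 18 of 50 with the full choice in PD1 KO and 27 of 50 in PD1 Het. A UMI of Pcp4 or Cntn2 was found in 18 spots of the full choice in PD1 KO and 33 in PD1 Het. The endothelial and conduction markers thus overlapped in part of the spots of both sections.

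Genes that took no part in the choice were compared between endocardial and other spots as log2 ratios of CPM over the summed spots, relative to the ratio of the median gene. That median was 0.0032 in PD1 KO and 0.13 in PD1 Het. Of 2915 genes with at least 500 UMIs in each section, 90 (3.09%) were at least 1.5-fold higher and 20 (0.686%) at least 1.5-fold lower in PD1 KO endocardial spots. In PD1 Het, 206 (7.07%) were higher and 163 (5.59%) lower. With TMM factors, which scale by a trimmed mean of the ratios, the split was 60 higher and 53 lower in PD1 KO and 116 higher and 370 lower in PD1 Het, and without subtracting the median gene it was 322 higher and 72 lower in PD1 Het. In both sections, 80 (2.74%) were higher and 16 (0.549%) lower. The genes higher in both were 88.9% of the PD1 KO list and 38.8% of the PD1 Het list. Across the 2915 genes, which are not independent replicates, the ratios of the sections had a Pearson's r of 0.71, and 1 gene, Clu, passed the fold in opposite directions.

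**Figure D2:**
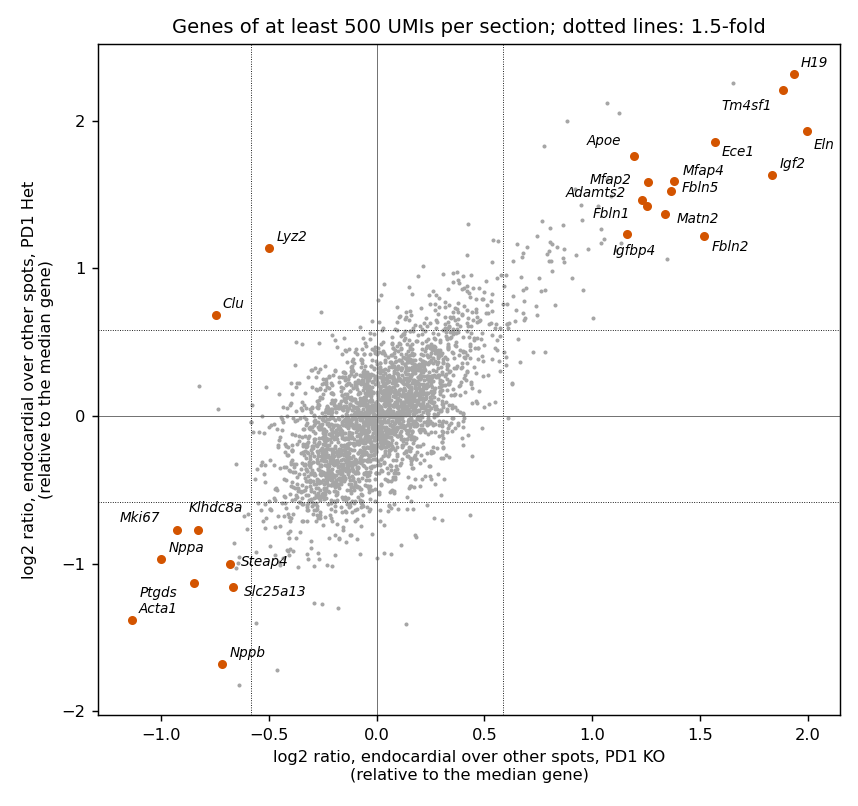
Log2 ratio of endocardial over other spots for 2915 genes, PD1 KO on the horizontal and PD1 Het on the vertical axis, relative to the median gene; dotted lines mark 1.5-fold and orange points the named genes. Eln, H19, Tm4sf1, Igf2 and Ece1 lie far up in both sections, Acta1, Nppa and Nppb far down in both, and Clu on opposite sides of 0.

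H19, Igf2, Tm4sf1 and Ece1 were among the 15 genes with the highest ratios in both sections. H19 (chr7:142575529-142578143), an imprinted non-coding RNA of growing tissue, ranged over single endocardial spots from 27.8 to 2878 CPM with a median of 495 CPM in PD1 KO, and from 0 to 2223 CPM with a median of 786 CPM in PD1 Het, against medians of 133 CPM in PD1 KO and 101 CPM in PD1 Het in other spots. Over the summed spots it had 615 against 160.4 CPM in PD1 KO and 763 against 139.9 CPM in PD1 Het. Log2 ratios of H19 were 1.94 (1.82 to 2.05) in PD1 KO and 2.31 (2.18 to 2.45) in PD1 Het. Igf2 (chr7:142650766-142666816), insulin-like growth factor 2, lies near H19 and is expressed from the other parental copy. It ranged from 24.1 to 2436 CPM with a median of 527 CPM in PD1 KO, and from 0 to 1605 CPM with a median of 525 CPM in PD1 Het, against medians of 142 CPM in PD1 KO and 142 CPM in PD1 Het in other spots. Its summed levels were 572 against 159.7 CPM in PD1 KO and 577 against 169 CPM in PD1 Het. Log2 ratios of Igf2 were 1.84 (1.72 to 1.95) in PD1 KO and 1.63 (1.48 to 1.78) in PD1 Het. Neither gene rested on few of the chosen spots: H19 had a UMI in 50 of 50 spots in PD1 KO and 45 of 50 in PD1 Het, Igf2 in 50 of 50 and 46 of 50, and the highest single spot held 5.79% in PD1 KO and 6.15% in PD1 Het of the H19 UMIs and 5.52% in PD1 KO and 6.56% in PD1 Het of the Igf2 UMIs. For each gene the single spots of the endocardial and other sets overlapped.

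Tm4sf1 (chr3:57285611-57301988), a membrane protein of the tetraspanin-like family found on endothelium, ranged from 0 to 1369 CPM with a median of 399.8 CPM in PD1 KO, and from 0 to 1437 CPM with a median of 478 CPM in PD1 Het, against medians of 88.6 CPM in PD1 KO and 80.0 CPM in PD1 Het in other spots. The highest endocardial spot of each section lay above the highest other spot, at 768 CPM in PD1 KO and 722 CPM in PD1 Het. Its summed levels were 397 against 107 CPM in PD1 KO and 518 against 102 CPM in PD1 Het. Log2 ratios of Tm4sf1 were 1.89 (1.74 to 2.03) in PD1 KO and 2.21 (2.04 to 2.37) in PD1 Het. Ece1 (chr4:137862237-137965229), the enzyme that releases active endothelin, had medians per spot of 110.1 CPM in PD1 KO and 127 CPM in PD1 Het, against 36.2 and 0 CPM in the other spots of PD1 KO and PD1 Het. Its summed levels were 125 against 41.9 CPM in PD1 KO and 151 against 38.0 CPM in PD1 Het. Log2 ratios of Ece1 were 1.57 (1.31 to 1.82) in PD1 KO and 1.86 (1.55 to 2.16) in PD1 Het.

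Elastic fibre genes made up a further part of the 15. Eln (chr5:134702593-134747323), elastin, the core protein of the fibres, ranged from 412 to 14629 CPM with a median of 2305 CPM in PD1 KO, and from 0 to 15037 CPM with a median of 2199 CPM in PD1 Het, against medians of 417 CPM in PD1 KO and 299 CPM in PD1 Het in other spots. The highest other spot lay above the highest endocardial one in both sections, at 17878 CPM in PD1 KO and 35769 CPM in PD1 Het, so the sets overlapped. Its summed levels were 2786 against 697 CPM in PD1 KO and 3019.6 against 721 CPM in PD1 Het. Log2 ratios of Eln were 2.00 (1.94 to 2.05) in PD1 KO and 1.93 (1.86 to 2.00) in PD1 Het. All 9 elastic fibre genes had at least 500 UMIs per section, and 7 were at least 1.5-fold higher in both, against 2.74% of all 2915 genes. The list median was 1.26 in PD1 KO and 1.22 in PD1 Het, where the median over all 2915 genes is 0 by construction. Mfap4, a microfibril-associated glycoprotein, had 1.38 (1.26 to 1.5) in PD1 KO and 1.60 (1.45 to 1.74) in PD1 Het. The fibulins Fbln2 and Fbln1, which bind elastin and basement membrane, had 1.52 in PD1 KO and 1.22 in PD1 Het for Fbln2 and 1.26 in PD1 KO and 1.42 in PD1 Het for Fbln1. Fbln5, the fibulin needed to assemble elastic fibres, had 1.36 (1.12 to 1.60) in PD1 KO and 1.53 (1.19 to 1.85) in PD1 Het, with 26.1% in PD1 KO and 26.1% in PD1 Het of its endocardial UMIs in 1 spot. Fbn1, the fibrillin that forms the microfibril backbone, had 0.68 in PD1 KO and 0.65 in PD1 Het, and Ltbp4, which tethers latent TGF-β to it, 0.60 in PD1 KO and 0.62 in PD1 Het. The remaining 2 did not pass the fold in both sections, Emilin1 with 0.37 in PD1 KO and 0.59 in PD1 Het and Mfap5 with 0.39 in PD1 KO and 0.45 in PD1 Het. The top 20% of spots of each section for the summed list held 41 of 50 endocardial spots in PD1 KO and 41 of 50 in PD1 Het.

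Other matrix genes, with Apoe and Igfbp4, were also among the 15. Matn2, a filament-forming matrilin, had 1.34 in PD1 KO and 1.37 in PD1 Het, and Mfap2, a microfibril protein, 1.26 in PD1 KO and 1.58 in PD1 Het. Adamts2, the procollagen N-proteinase, had 1.23 (1.02 to 1.43) in PD1 KO and 1.46 (1.20 to 1.71) in PD1 Het. Igfbp4, which binds insulin-like growth factors, had 1.16 (1.03 to 1.29) in PD1 KO and 1.24 (1.08 to 1.39) in PD1 Het. Apoe, an apolipoprotein of macrophages and stroma, had 816 against 356 CPM in PD1 KO and 1264 against 340.1 CPM in PD1 Het. Log2 ratios of Apoe were 1.19 in PD1 KO and 1.76 in PD1 Het. Of the 15 genes, 14 stayed past 1.5-fold in both sections under all 21 alternative settings, and Fbln2 under 20, with 0.45 in PD1 Het spots ranked by Pcp4 and Cntn2 alone.

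For comparison with other non-muscle regions, 4 further sets of 50 spots were taken in each section, those with the largest summed share of scar matrix, smooth muscle, epicardial or capillary genes, leaving out the endocardial spots. H19 had 615 CPM in PD1 KO and 763 CPM in PD1 Het endocardial spots, against 409.7 CPM in PD1 KO and 243 CPM in PD1 Het scar matrix spots. Igf2 had 572 CPM in PD1 KO and 577 CPM in PD1 Het endocardial spots, against 179.7 CPM in PD1 KO and 204 CPM in PD1 Het scar matrix spots. For Tm4sf1 the values were 397 CPM in PD1 KO and 518 CPM in PD1 Het endocardial spots, against 221 CPM in PD1 KO and 176 CPM in PD1 Het smooth muscle spots and 108 CPM in PD1 KO and 90.0 CPM in PD1 Het capillary spots. For Ece1 they were 125 CPM in PD1 KO and 151 CPM in PD1 Het endocardial spots, against 42.1 CPM in PD1 KO and 64.4 CPM in PD1 Het scar matrix spots. These 4 genes were higher in the endocardial set than in each of the 4 other sets of both sections, with counting intervals that did not overlap. They were taken from the genes already named for the highest endocardial ratios. The share of all genes that meet this criterion is not given here, so the result has no background to be read against.

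Eln was higher in the scar matrix set, with 2786 CPM in PD1 KO and 3019.6 CPM in PD1 Het endocardial spots, against 3381 CPM in PD1 KO and 6988 CPM in PD1 Het scar matrix spots. Mfap4, Fbln5, Adamts2 and Apoe were likewise higher in the scar matrix set than in the endocardial set of both sections. The elastic fibre list summed to 5829 CPM in PD1 KO and 6016 CPM in PD1 Het endocardial spots, against 7520.1 CPM in PD1 KO and 11801 CPM in PD1 Het scar matrix spots, so its level was not particular to the endocardial spots. Before the endocardial spots were left out, the 50 spots highest in scar matrix genes included 4 of them in PD1 KO and 13 in PD1 Het.

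**Figure D3:**
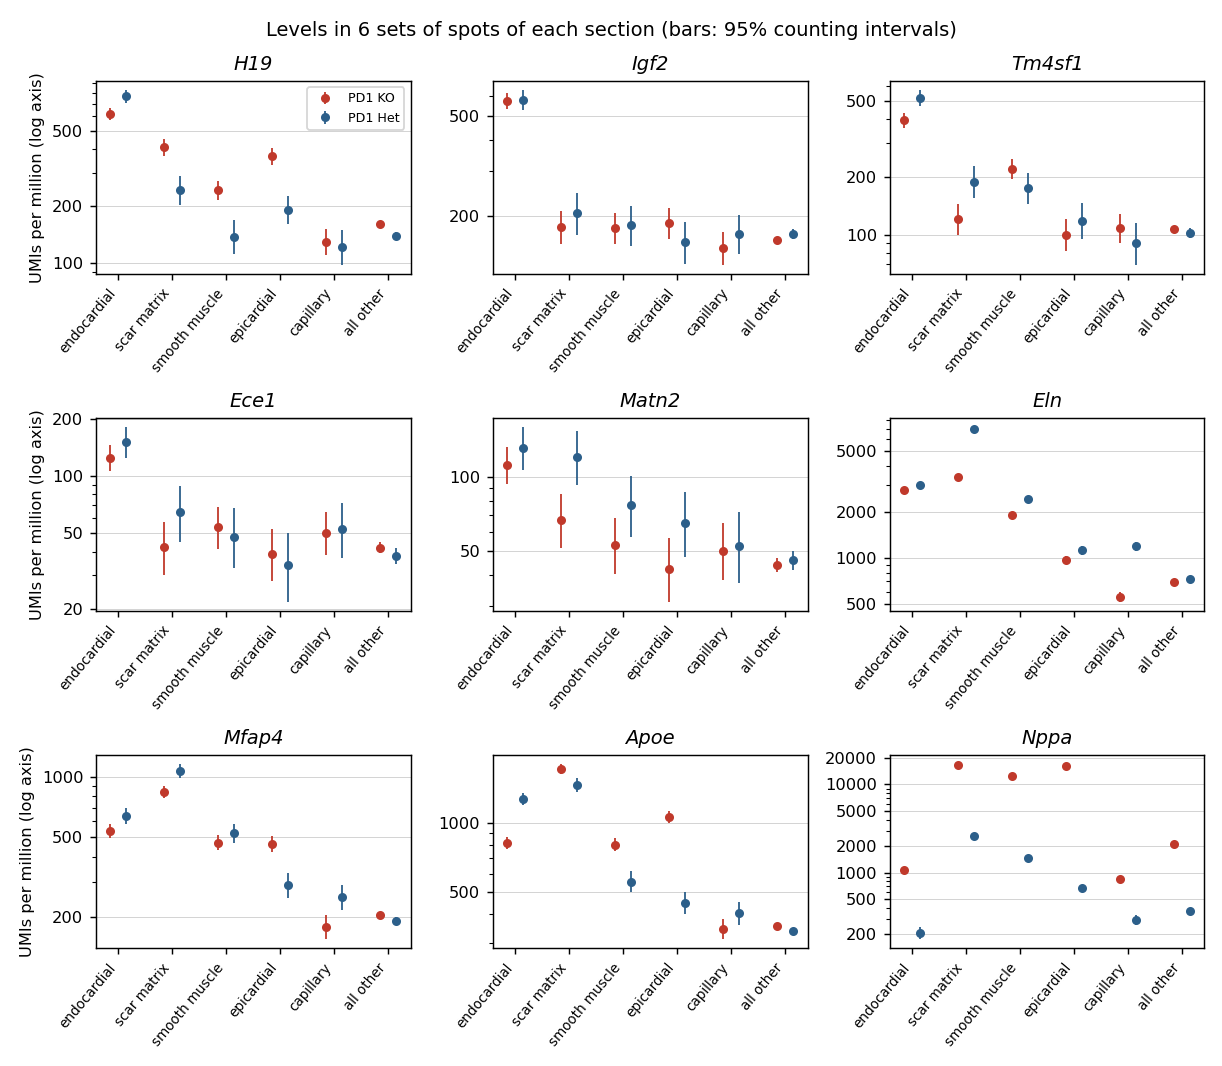
CPM (log axes) of 9 genes in the endocardial spots, 4 other sets of 50 spots and all spots outside the endocardial ones, PD1 KO left of PD1 Het; bars are 95% counting intervals. H19, Igf2, Tm4sf1 and Ece1 are highest in the endocardial set, and Eln, Mfap4 and Apoe in the scar matrix set, in both sections.

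Endocardial genes outside the marker set were higher as a summed list. Its members were chosen with earlier results of these data known, so its values are a description. Its level in the scar matrix and other comparison sets is not given here. The list of 16 genes had 1100.2 against 565 CPM in PD1 KO and 1221 against 524 CPM in PD1 Het. Log2 ratios of this list were 0.96 (0.88 to 1.04) in PD1 KO and 1.09 (0.99 to 1.19) in PD1 Het. The top 20% of spots for this list held 40 of 50 endocardial spots in PD1 KO and 40 of 50 in PD1 Het, and its median per spot was 1111 CPM in PD1 KO and 1163 CPM in PD1 Het, against 558 CPM and 507 CPM in the other spots of PD1 KO and PD1 Het. At least 1.5-fold higher in both were 2.74% of all 2915 genes and 3 of the list's 6 genes with at least 500 UMIs per section. These were Emcn, a sialomucin of endocardium and veins, with 0.86 (0.60 to 1.12) in PD1 KO and 1.30 (1.01 to 1.57) in PD1 Het, Tek, the angiopoietin receptor, with 0.86 (0.60 to 1.12) in PD1 KO and 1.07 (0.74 to 1.38) in PD1 Het, and Eng, the TGF-β co-receptor endoglin, with 0.81 (0.62 to 1.0) in PD1 KO and 0.98 (0.78 to 1.18) in PD1 Het. The transcription factors Gata4 and Hand2, which muscle also expresses, had 0.33 in PD1 KO and 0.53 in PD1 Het for Gata4 and 0.21 in PD1 KO and 0.30 in PD1 Het for Hand2, and the pan-endothelial receptor Tie1 0.21 in PD1 KO and 0.15 in PD1 Het.

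The other 10 endocardial genes had fewer UMIs and are named from the list after their values were seen. Nrg1, neuregulin-1, the endocardial ligand of ErbB receptors on muscle, had 15 against 15 UMIs in PD1 KO and 4 against 3 UMIs in PD1 Het in endocardial against other spots. Log2 ratios of Nrg1 were 4.17 (3.04 to 5.30) in PD1 KO and 4.26 (1.69 to 7.03) in PD1 Het. Foxc1, a forkhead factor of endocardium and valves, had 46.1 against 7.67 CPM in PD1 KO and 22.2 against 3.74 CPM in PD1 Het. Log2 ratios of Foxc1 were 2.58 (2.13 to 3.03) in PD1 KO and 2.44 (1.54 to 3.27) in PD1 Het. Cdh11, a cadherin of cushion and valve mesenchyme, had 2.16 (1.89 to 2.43) in PD1 KO and 2.82 (2.35 to 3.27) in PD1 Het, and Hmcn1, the basement membrane protein hemicentin-1, 1.96 (1.61 to 2.29) in PD1 KO and 2.5 (2.00 to 2.98) in PD1 Het. Tmem108 had 2.41 (1.74 to 3.03) in PD1 KO and 3.52 (2.75 to 4.28) in PD1 Het, and Cgnl1, a cell junction protein, 1.78 (1.46 to 2.09) in PD1 KO and 2.10 (1.68 to 2.51) in PD1 Het. Bmp6, a bone morphogenetic protein made by endothelium, had 1.58 (1.12 to 2.03) in PD1 KO and 1.5 (0.91 to 2.05) in PD1 Het, and Adgrg6, an adhesion receptor, 2.53 (1.26 to 3.66) in PD1 KO and 2.70 (0.83 to 4.35) in PD1 Het. For Nfatc1, a transcription factor of embryonic endocardium, the depth could not show a difference, with 0.07 (-0.66 to 0.72) in PD1 KO and -0.29 (-1.77 to 0.88) in PD1 Het. The same held for Tmem100, with 0.40 (-0.46 to 1.16) in PD1 KO and 0.49 (-0.46 to 1.31) in PD1 Het.

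Genes shared by all endothelium lay near the median gene, and capillary genes lay below it. The pan-endothelial list had 0.06 (0.01 to 0.12) in PD1 KO and 0.04 (-0.03 to 0.11) in PD1 Het. Within it, Ramp2, the partner of the adrenomedullin receptor, had 1.11 (0.91 to 1.30) in PD1 KO and 1.13 (0.87 to 1.38) in PD1 Het, while Cdh5, the endothelial cadherin, had -0.27 (-0.47 to -0.08) in PD1 KO and -0.54 (-0.86 to -0.23) in PD1 Het. The capillary list had 2731 against 3529.7 CPM in PD1 KO and 2212 against 2983 CPM in PD1 Het. Log2 ratios of the capillary list were -0.37 (-0.42 to -0.32) in PD1 KO and -0.57 (-0.64 to -0.50) in PD1 Het. Of its 11 genes with enough UMIs, 0 were at least 1.5-fold higher, and 2 in PD1 KO and 7 in PD1 Het were at least 1.5-fold lower. Over all 2915 genes, 0.686% in PD1 KO and 5.59% in PD1 Het were lower. Rgcc, a cell cycle regulator, had -0.66 in PD1 KO and -0.86 in PD1 Het, and Tcf15, a transcription factor of capillary endothelium, -0.65 in PD1 KO and -1.03 in PD1 Het. Fabp4 and Cd36, which bind and take up fatty acids, had -0.37 in PD1 KO and -0.54 in PD1 Het for Fabp4 and -0.50 in PD1 KO and -0.63 in PD1 Het for Cd36. The bottom 20% of spots for the capillary list held 31 of 50 endocardial spots in PD1 KO and 30 of 50 in PD1 Het. In spots, fewer cells of a type and less RNA per cell cannot be told apart.

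Arterial and flow genes lay above the median gene as lists. The 11 arterial genes had 0.71 (0.58 to 0.84) in PD1 KO and 0.98 (0.80 to 1.15) in PD1 Het, and 1 of them, Fbln5, had at least 500 UMIs per section. Fbln5 gave 165 of the 517 endocardial UMIs of the list in PD1 KO and 92 of 311 in PD1 Het. Bmx, a kinase of arterial and endocardial endothelium, had 10 against 43 UMIs in PD1 KO and 14 against 25 UMIs in PD1 Het. Log2 ratios of Bmx were 2.07 (0.91 to 3.08) in PD1 KO and 3.0 (1.95 to 4.0) in PD1 Het. Gja5, the connexin of arteries and Purkinje fibres, had 1.47 (0.85 to 2.03) in PD1 KO and 2.12 (1.48 to 2.72) in PD1 Het. The arterial transcription factors gave ratios with intervals that included 0, for Sox17 -0.55 (-1.34 to 0.15) in PD1 KO and -0.41 (-1.65 to 0.61) in PD1 Het and for Hey1 -0.07 (-0.84 to 0.61) in PD1 KO and -0.52 (-1.75 to 0.50) in PD1 Het. Of the 10 arterial genes with fewer UMIs, 4 had intervals above 0 in both sections. The 17 flow and haemostasis genes had 0.29 (0.21 to 0.37) in PD1 KO and 0.45 (0.35 to 0.56) in PD1 Het. Of 7 with enough UMIs, Ece1 and Thbd passed the fold in both sections, against 2.74% of all 2915 genes. The list was not uniform: Cav1 lay below 0, with -0.35 (-0.51 to -0.20) in PD1 KO and -0.51 (-0.76 to -0.28) in PD1 Het. Thbd, thrombomodulin, which turns thrombin to an anticoagulant role, had 0.80 (0.50 to 1.09) in PD1 KO and 1.27 (0.94 to 1.59) in PD1 Het. Edn1, endothelin-1, whose precursor Ece1 cleaves, had 27 against 154 UMIs in PD1 KO and 14 against 49 UMIs in PD1 Het. Log2 ratios of Edn1 were 1.66 (1.01 to 2.25) in PD1 KO and 2.03 (1.06 to 2.91) in PD1 Het. Of the 10 flow and haemostasis genes with fewer UMIs, 4 had intervals above 0 in both sections. The share of all such scarce genes with intervals above 0 is not given here. The arterial and flow counts of scarce genes therefore have no background to be read against.

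Signalling genes between endocardium and muscle were uneven. The 18 neuregulin and BMP genes had 0.65 (0.56 to 0.73) in PD1 KO and 0.86 (0.74 to 0.98) in PD1 Het. Higher in both sections were 2.74% of all 2915 genes and 1 of the 4 with enough UMIs here. This was Id3, a transcriptional inhibitor induced by BMP, with 0.63 (0.45 to 0.81) in PD1 KO and 0.81 (0.57 to 1.04) in PD1 Het. Its relative Id2, also needed in the conduction system, had 144 against 32.8 CPM in PD1 KO and 154 against 25 CPM in PD1 Het. Log2 ratios of Id2 were 2.13 (1.89 to 2.37) in PD1 KO and 2.49 (2.17 to 2.80) in PD1 Het. Of the 14 neuregulin and BMP genes with fewer UMIs, 5 had intervals above 0 in both sections, a count again without the share over all scarce genes. For the neuregulin receptors of muscle the intervals included 0, with 0.35 (-0.28 to 0.93) in PD1 KO and 0.76 (-0.01 to 1.45) in PD1 Het for Erbb2 and -0.67 (-2.14 to 0.48) in PD1 KO and 0.49 (-1.19 to 1.81) in PD1 Het for Erbb4. Bmp10, a BMP of embryonic trabeculae and atria, had 0 UMIs in both sections. The 14 Notch pathway genes had 0.29 (0.18 to 0.41) in PD1 KO and 0.33 (0.17 to 0.50) in PD1 Het, and the receptor Notch1 0.27 (-0.10 to 0.62) in PD1 KO and 0.82 (0.38 to 1.24) in PD1 Het.

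Conduction genes outside the marker set held scarce genes with high ratios beside broad muscle genes with low ones. The list of 22 had 1884 against 1506 CPM in PD1 KO and 1809.9 against 1279 CPM in PD1 Het. Log2 ratios of the list were 0.32 (0.26 to 0.38) in PD1 KO and 0.37 (0.29 to 0.45) in PD1 Het. Of its 6 genes with enough UMIs, 1 passed the fold in both sections, where 2.74% of all 2915 genes were higher in both. This was Igfbp5, a binding protein of insulin-like growth factors, with 311 against 122 CPM in PD1 KO and 213 against 92.9 CPM in PD1 Het. Log2 ratios of Igfbp5 were 1.35 (1.19 to 1.5) in PD1 KO and 1.06 (0.82 to 1.30) in PD1 Het. Gja1, the connexin of working muscle, had -0.40 (-0.54 to -0.27) in PD1 KO and -0.37 (-0.58 to -0.17) in PD1 Het, and Nkx2-5, the cardiac homeobox factor, 0.03 (-0.26 to 0.30) in PD1 KO and 0.26 (-0.06 to 0.57) in PD1 Het. Among scarce genes, named after their values were seen, Scn10a, a sodium channel, had 9 against 30 UMIs in PD1 KO and 17 against 18 UMIs in PD1 Het. Log2 ratios of Scn10a were 2.43 (1.17 to 3.54) in PD1 KO and 3.76 (2.71 to 4.80) in PD1 Het. Hcn4, the pacemaker channel, had 2.36 (1.39 to 3.24) in PD1 KO and 2.84 (1.94 to 3.69) in PD1 Het, and Etv1, a factor of fast-conducting muscle, 1.31 (0.80 to 1.78) in PD1 KO and 2.14 (1.60 to 2.66) in PD1 Het. Sema3a, a nerve guidance protein of the subendocardium, had 3.27 (2.26 to 4.22) in PD1 KO and 3.34 (2.14 to 4.49) in PD1 Het, and Cpne5, a calcium-dependent membrane-binding protein, 5 against 15 UMIs in PD1 KO and 9 against 6 UMIs in PD1 Het. Log2 ratios of Cpne5 were 2.58 (0.77 to 4.12) in PD1 KO and 4.43 (2.77 to 6.2) in PD1 Het. Of the 16 members of the list with fewer than 500 UMIs in a section, 9 had intervals above 0 in both sections, 0 had intervals below 0 in both, and 7 had neither. The share over all scarce genes is not given here, so these counts are a description.

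Muscle genes were lower but still abundant. Ventricular cardiomyocyte genes had 71647 against 84490.5 CPM in PD1 KO and 68197 against 84245 CPM in PD1 Het. Log2 ratios of this list were -0.24 (-0.25 to -0.23) in PD1 KO and -0.44 (-0.45 to -0.43) in PD1 Het. The bottom 20% of spots for them held 32 of 50 endocardial spots in PD1 KO and 33 of 50 in PD1 Het, and the top 20% held 0 in both. Of the defining atrial genes, Myl7 and Sln had 0 UMIs in the endocardial spots of both sections. The sum of the 9 atrial genes, 0.63 in PD1 KO and 1.38 in PD1 Het, rested mainly on Stard10, with 31.6 against 6.73 CPM in PD1 KO and 104 against 10.5 CPM in PD1 Het, and Dkk3, with 64.0 against 35.4 CPM in PD1 KO and 73.1 against 25.1 CPM in PD1 Het. Of the defining valve genes, Hapln1, Prg4 and Chad had 0 UMIs in the endocardial spots of both sections, while Dpt, a collagen-binding protein also of fibroblasts, had 1.13 (1.01 to 1.26) in PD1 KO and 1.17 (1.01 to 1.33) in PD1 Het, and Vcan, the cushion proteoglycan versican, 1.48 (1.20 to 1.75) in PD1 KO and 2.30 (1.96 to 2.63) in PD1 Het.

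Stromal genes moved with the elastic fibre genes. The 11 fibroblast genes had 0.56 (0.52 to 0.59) in PD1 KO and 0.96 (0.92 to 1.01) in PD1 Het. The 16 scar matrix genes had 0.58 (0.55 to 0.60) in PD1 KO and 0.85 (0.82 to 0.89) in PD1 Het. Of 8 scar matrix genes with enough UMIs, 4 were past the fold in both, against 2.74% of all 2915 genes higher in both. Col3a1, fibrillar collagen III, had 3899.5 against 2131 CPM in PD1 KO and 3839 against 1693 CPM in PD1 Het, and Postn, periostin of activated fibroblasts, 1366 against 905 CPM in PD1 KO and 1116 against 552 CPM in PD1 Het. The top 20% of spots for scar matrix genes held 30 of 50 endocardial spots in PD1 KO and 38 of 50 in PD1 Het. The part of fibroblasts in the elastic fibre result was not tested. Smooth muscle genes had -0.10 (-0.17 to -0.03) in PD1 KO and -0.18 (-0.27 to -0.09) in PD1 Het, pericyte genes -0.27 (-0.36 to -0.18) in PD1 KO and -0.63 (-0.77 to -0.49) in PD1 Het, and epicardial genes, which mark the outer surface, 0.00 (-0.25 to 0.24) in PD1 KO and 0.12 (-0.23 to 0.45) in PD1 Het.

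**Figure D4:**
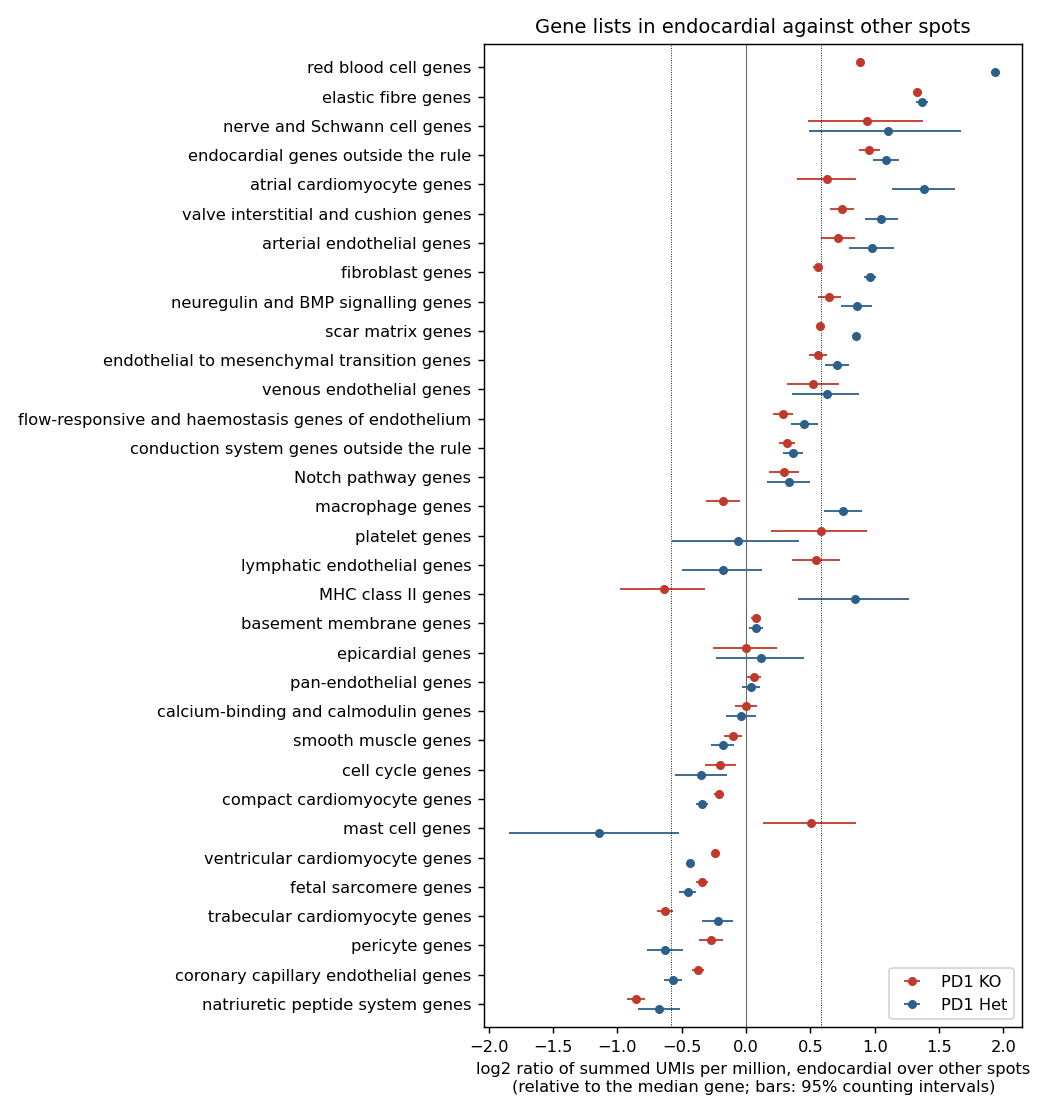
Log2 ratio of summed CPM, endocardial over other spots, relative to the median gene, for 33 gene lists, PD1 KO above PD1 Het; bars are 95% counting intervals and dotted lines 1.5-fold. Elastic fibre genes and endocardial genes outside the rule lie beyond the upper line in both sections. Red blood cell, nerve, valve, arterial, neuregulin and BMP, and atrial genes do so too. Natriuretic peptide genes lie beyond the lower line in both. Nppa gave 47592 of their 53663 UMIs in other spots of PD1 KO and 4425 of 7259 in PD1 Het. Macrophage, MHC class II and mast cell genes lie on opposite sides of 0.

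Red blood cell genes, which mark blood in the cavity and vessels, were uneven over the spots. All 4 of their genes with enough UMIs passed the fold in both sections, against 2.74% of all 2915 genes. The list had 13921 against 7529.8 CPM in PD1 KO and 28186 against 6710.5 CPM in PD1 Het. Log2 ratios of red cell genes were 0.88 (0.86 to 0.91) in PD1 KO and 1.94 (1.91 to 1.96) in PD1 Het. The median endocardial spot had 4226 CPM in PD1 KO and 4253 CPM in PD1 Het, against 4317 CPM and 2702 CPM in the other spots of PD1 KO and PD1 Het, and the highest endocardial spot had 125840 CPM in PD1 KO and 210029 CPM in PD1 Het. The highest values thus lay in few spots. For Hba-a1, an alpha globin whose reads can be shared with its near-identical copy, 1 spot held 36.5% in PD1 KO and 28.8% in PD1 Het of the endocardial UMIs. The median ratio of the list's genes in PD1 KO was 0.98 in the main choice and -0.34 with spots ranked without Vwf. That ranking shared 34 PD1 KO spots with the main choice. Ranked by Pcp4 and Cntn2 only, the median was -0.41. The direction in PD1 KO thus depended on which spots were chosen, and the cause was not tested. Red cell genes had 4814 CPM in the 15 PD1 KO spots led by Npr3, Cytl1 and Smoc1 and 16999.9 CPM in the 32 led by Vwf and Plvap. In PD1 Het they had 38825 CPM in the 13 spots led by Npr3, Cytl1 and Smoc1 and 29222 CPM in the 29 led by Vwf and Plvap, the opposite order.

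Natriuretic peptides and Acta1 were among the genes lowest in endocardial against other spots. Nppa (chr4:148000722-148002079), atrial natriuretic peptide, a hormone of stretched muscle and a ligand of Npr3, ranged from 0 to 22572 CPM with a median of 215 CPM in PD1 KO, and from 0 to 868 CPM with a median of 128 CPM in PD1 Het, against medians of 272 CPM in PD1 KO and 87.9 CPM in PD1 Het in other spots. The highest other spot had 60302 CPM in PD1 KO and 19557 CPM in PD1 Het. Summed levels were 1069 against 2136 CPM in PD1 KO and 206 against 367 CPM in PD1 Het. Log2 ratios of Nppa were -1.0 (-1.08 to -0.92) in PD1 KO and -0.97 (-1.21 to -0.74) in PD1 Het, and in PD1 Het the median spot was higher in the endocardial set. In PD1 KO, 1 spot held 48.3% of the endocardial Nppa UMIs, and with spots ranked by Pcp4 and Cntn2 alone the ratio there was 0.82. Nppb (chr4:147985788-147987205), the B-type peptide, encoded beside Nppa, had 75.3 against 123 CPM in PD1 KO and 30.0 against 87.8 CPM in PD1 Het. Log2 ratios of Nppb were -0.72 (-1.03 to -0.42) in PD1 KO and -1.68 (-2.35 to -1.09) in PD1 Het. Acta1, the skeletal actin of fetal and stressed muscle, had 127 against 279 CPM in PD1 KO and 47.0 against 112 CPM in PD1 Het. Log2 ratios of Acta1 were -1.14 (-1.38 to -0.91) in PD1 KO and -1.38 (-1.90 to -0.91) in PD1 Het. Npr1, the signalling receptor of these peptides, lay on the other side of 0, with 0.76 (0.33 to 1.17) in PD1 KO and 0.79 (0.24 to 1.29) in PD1 Het.

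The other 5 of the 8 lowest genes had few UMIs. Mki67, a proliferation marker, had 28.3 against 53.7 CPM in PD1 KO and 27.4 against 42.6 CPM in PD1 Het, from 35 endocardial UMIs in PD1 KO and 21 in PD1 Het, and the 12 cell cycle genes together had -0.20 (-0.32 to -0.08) in PD1 KO and -0.35 (-0.55 to -0.15) in PD1 Het. Ptgds, a prostaglandin D synthase, had -0.85 (-1.19 to -0.53) in PD1 KO and -1.13 (-1.66 to -0.65) in PD1 Het. Klhdc8a had -0.83 in PD1 KO and -0.77 in PD1 Het, Steap4, a metalloreductase, -0.68 in PD1 KO and -1.0 in PD1 Het, and Slc25a13, the mitochondrial aspartate and glutamate carrier, -0.67 in PD1 KO and -1.16 in PD1 Het. Acta1 and Ptgds stayed past the fold in both sections under all 21 alternatives, and the other 6 under 16 to 19.

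Within the endocardial set, spots led by Npr3, Cytl1 and Smoc1 differed from those led by Vwf and Plvap in the same direction in both hearts for several genes. In that order, Tm4sf1 had 640.1 against 301 CPM in PD1 KO and 648 against 404 CPM in PD1 Het. Igf2 had 853 against 483 CPM in PD1 KO and 711 against 527 CPM in PD1 Het, H19 had 863 against 548 CPM in PD1 KO and 986 against 722 CPM in PD1 Het, and Ece1 had 191 against 103 CPM in PD1 KO and 174 against 125 CPM in PD1 Het. Spots led by the Npr3 group were thus the higher ones for all 4 genes. Endocardial genes outside the rule had 1516 against 969 CPM in PD1 KO and 1507 against 1126 CPM in PD1 Het, and capillary genes, in the opposite direction, 2350.2 against 2897 CPM in PD1 KO and 1892 against 2475 CPM in PD1 Het. Nppa had 2777 against 476 CPM in PD1 KO and 206 against 188 CPM in PD1 Het. In PD1 KO, 1 spot held 48.3% of the endocardial Nppa UMIs, and in PD1 Het the levels were close. The 6 PD1 Het spots led by Pcp4 and Cntn2 had 639.6 CPM of Tm4sf1, 235 CPM of Ece1 and 15828 CPM of red cell genes. The kinds of marker that define these groups of spots are part of the choice, and spots are not replicates, so these values are a description.

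The genotype comparison was made between the endocardial spots of the sections, again relative to the median gene. Of the 2915 genes, 207 (7.1%) were at least 1.5-fold higher in PD1 KO than in PD1 Het and 116 (3.98%) at least 1.5-fold lower, and without subtracting the median gene the split was 286 higher and 74 lower. In the other spots, whose sums rest on more UMIs, 68 (2.33%) were higher and 45 (1.54%) lower, against 279 and 20 without subtracting the median gene and 39 and 93 with TMM factors. A total of 62 genes passed the fold in the same direction in both kinds of spot. Of the 15 genes highest in endocardial spots of both sections, 1 passed the fold, Apoe, with -0.71 (-0.84 to -0.58), against -0.14 in the other spots. Eln had -0.20 (-0.27 to -0.12), Igf2 -0.09 (-0.27 to 0.08), Fbln2 0.06 (-0.13 to 0.26) and Matn2 -0.31 (-0.69 to 0.08), with H19 at -0.39 (-0.55 to -0.23) and Tm4sf1 at -0.46 (-0.66 to -0.27).

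Nppa, Acta1, Nppb, Ankrd1 and Tfrc were among the 10 genes highest in PD1 KO against PD1 Het endocardial spots. Nppa had 1069 CPM in PD1 KO and 206 CPM in PD1 Het, a log2 ratio of 2.29 (2.05 to 2.54), against 2.33 in the other spots. Its median per endocardial spot was 215 CPM in PD1 KO and 128 CPM in PD1 Het, against 272 and 87.9 CPM in the other spots of PD1 KO and PD1 Het, and 1 PD1 KO spot held 48.3% of the endocardial UMIs. In the other spots its UMIs were also uneven, with 16794 CPM in PD1 KO and 2575 CPM in PD1 Het scar matrix spots. Acta1 had 127 CPM in PD1 KO and 47.0 CPM in PD1 Het, a log2 ratio of 1.35 (0.82 to 1.92), against 1.11 in the other spots. Nppb had 75.3 CPM in PD1 KO and 30.0 CPM in PD1 Het, a log2 ratio of 1.25 (0.57 to 1.97), against 0.28 in the other spots, and Ankrd1, a stretch-responsive muscle repressor, 669 CPM in PD1 KO and 275 CPM in PD1 Het, a log2 ratio of 1.20 (0.98 to 1.42), against 0.49 in the other spots. Tfrc, the transferrin receptor that takes up iron, had 204 CPM in PD1 KO and 58.7 CPM in PD1 Het, a log2 ratio of 1.71 (1.25 to 2.21), against 1.26 in the other spots. For Nppb and Ankrd1 the ratio was larger in endocardial than in other spots, a difference that was not tested. The fetal sarcomere list, which holds Acta1 and Ankrd1, summed to 0.22 (0.14 to 0.30). Of its 7 genes with enough UMIs, 4 were at least 1.5-fold higher, against 7.1% of all 2915 genes. Within the list, Des, the filament protein desmin, had -0.20 (-0.37 to -0.02) and Csrp3, a muscle LIM protein, -0.07 (-0.20 to 0.05).

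The other 5 of the 10 highest genes had few UMIs in PD1 Het. Nt5c3, a pyrimidine nucleotidase, had 69.6 CPM in PD1 KO and 17.0 CPM in PD1 Het, a log2 ratio of 1.96 (1.11 to 2.92), against 0.41 in the other spots, from 86 UMIs in PD1 KO and 13 in PD1 Het. Itga1, the collagen-binding integrin alpha-1, had 73.7 CPM in PD1 KO and 27.4 CPM in PD1 Het, a log2 ratio of 1.34 (0.65 to 2.10), against 0.23 in the other spots. Sox18, an endothelial transcription factor, had 68.0 CPM in PD1 KO and 27.4 CPM in PD1 Het, a log2 ratio of 1.23 (0.53 to 1.99), against 0.62 in the other spots. Rbm24, a muscle splicing factor, had 1.27 (0.75 to 1.81) against 0.78, and Glul, glutamine synthetase, 1.23 (0.66 to 1.84) against 0.70 in the other spots.

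The 10 genes lowest in PD1 KO against PD1 Het endocardial spots included Ftl1 and Lyz2. Ftl1, the ferritin light chain that stores iron, had 528 CPM in PD1 KO and 1041 CPM in PD1 Het, a log2 ratio of -1.06 (-1.21 to -0.91), against -0.75 in the other spots. Lyz2, lysozyme of macrophages and neutrophils, had 95.5 CPM in PD1 KO and 183 CPM in PD1 Het, a log2 ratio of -1.02 (-1.38 to -0.65), against 0.62 in the other spots, with 27.1% of its PD1 Het endocardial UMIs in 1 spot. Polr2l, an RNA polymerase subunit, had -1.52 (-2.12 to -0.94) against -1.29 in the other spots, and Eno1, the glycolytic enolase, whose reads may be shared with near-identical copies, -1.14 (-1.65 to -0.63) against -1.05, so the ratios were alike in both kinds of spot. Nrtn, the growth factor neurturin, had 39.7 CPM in PD1 KO and 95.3 CPM in PD1 Het, a log2 ratio of -1.35 (-1.90 to -0.80), against -0.55 in the other spots. Elovl1, a fatty acid elongase, had -1.06 (-1.69 to -0.43) against -0.37 in the other spots, and B3gat3, a glucuronyltransferase, -0.97 (-1.68 to -0.27) against -0.47. Arl6ip5 had -1.0 (-1.60 to -0.41) against -0.56, and Smtnl2 -0.98 (-1.46 to -0.50) against -0.32.

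**Figure D5:**
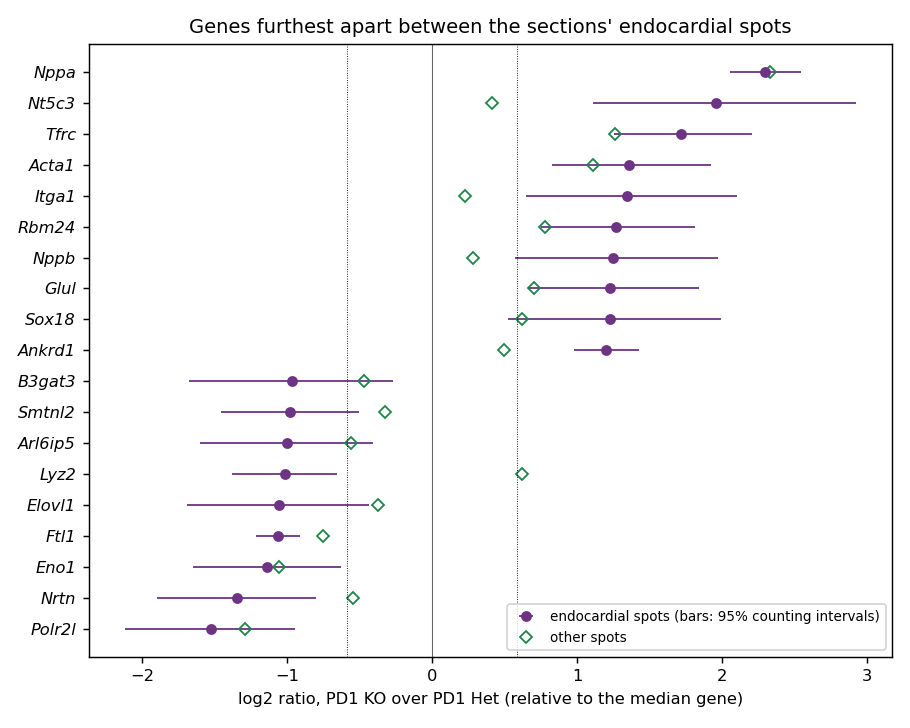
Log2 ratio of PD1 KO over PD1 Het, relative to the median gene, for the 10 highest and 9 of the 10 lowest genes of the endocardial spots (with 95% counting intervals) and for the same genes in the other spots (diamonds); dotted lines mark 1.5-fold. Nppa and Eno1 have nearly the same ratio in both kinds of spot, and Lyz2 has ratios of opposite sign.

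Over all 2915 genes, 7.1% were at least 1.5-fold higher and 3.98% lower in PD1 KO endocardial spots, the background for the counts that follow. Among the lists, red cell genes had 13921 CPM in PD1 KO and 28186 CPM in PD1 Het, a ratio of PD1 KO over PD1 Het of -1.1 (-1.13 to -1.07). Of their genes with enough UMIs, 4 of 4 were at least 1.5-fold lower, with the highest values in few spots as given above. Macrophage genes had 385 CPM in PD1 KO and 538 CPM in PD1 Het, -0.56 (-0.76 to -0.37). The other spots had the opposite order for them, with 435 CPM in PD1 KO and 290 CPM in PD1 Het. Cell cycle genes had 477 CPM in PD1 KO and 279 CPM in PD1 Het, 0.69 (0.46 to 0.92). They were also higher in PD1 KO in the other spots, with 546 CPM in PD1 KO and 324 CPM in PD1 Het. Pericyte genes had 0.52 (0.35 to 0.68), with 3 of 5 at least 1.5-fold higher, against 7.1% of all 2915 genes. In the other spots they had 999.8 CPM in PD1 KO and 772 CPM in PD1 Het. Endocardial genes outside the rule had -0.23 (-0.35 to -0.11), with 2 of 6 at least 1.5-fold lower, Eng at -0.73 (-0.99 to -0.47) and Emcn at -0.66 (-1.02 to -0.30). In the other spots, Eng had -0.56 and Emcn -0.23. Endothelial lists were uneven: pan-endothelial genes had 0.02 (-0.07 to 0.10), capillary genes 0.22 (0.14 to 0.31) and lymphatic genes 0.64 (0.30 to 1.0). Scar matrix genes were at 0.00 (-0.04 to 0.04), elastic fibre genes at -0.13 (-0.18 to -0.07) and conduction genes outside the rule at -0.02 (-0.12 to 0.07).

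The ratio of endocardial over other spots differed between the hearts for a few genes. Lyz2 had -0.50 (-0.78 to -0.23) in PD1 KO and 1.14 (0.87 to 1.40) in PD1 Het. The 12 macrophage genes had -0.18 (-0.31 to -0.04) in PD1 KO and 0.76 (0.61 to 0.90) in PD1 Het, and their part in the Lyz2 result was not tested. Clu, the secreted chaperone clusterin, had 253 against 423 CPM in PD1 KO and 251 against 142 CPM in PD1 Het, so its level in endocardial spots was nearly equal in the hearts and its level in other spots was not. The largest differences in the opposite direction, PD1 KO minus PD1 Het, were 1.55 for Nt5c3, 1.25 for Lrtm1, 1.18 for Cd300lg, 1.12 for Itga1 and 1.11 for Myct1. Cd300lg, a receptor of capillary endothelium, had -0.64 (-1.09 to -0.22) in PD1 KO and -1.82 (-2.74 to -1.04) in PD1 Het, and Myct1, an endothelial gene, 0.43 (0.09 to 0.76) in PD1 KO and -0.67 (-1.33 to -0.08) in PD1 Het. The difference was -0.97 for Dhx9, an RNA helicase, and -0.88 for Gga2, a sorting adaptor. With 1 section per genotype, none of these differences was tested.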

How the data were processed

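Endocardial and other spots were compared in 2 Visium sections. The deposited matrices hold unnormalised counts of UMIs for every gene in every spot. Per the file headers these came from Space Ranger 1.1.0, and the build was mm10 (GRCm38) per the submitters' processing notes. Settings of the alignment are not given in the sources used. They held 859 spots in PD1 KO and 812 in PD1 Het, of which those with at least 500 UMIs were kept. Gene positions came from GENCODE M21, which held 32158 of 32285 gene IDs. Each of 33 gene lists (341 genes) and the members were chosen with earlier results of these data known.

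Counts were summed over the spots of each set, divided by the sum of all genes to give CPM, and compared as log2 ratios relative to the median gene of those with at least 500 UMIs in each section. Called means past 1.5-fold. Intervals are exact at 95% (Poisson for levels, conditional binomial for ratios, Clopper-Pearson for shares); a count of 0 was read as at most 3. With 1 section per group no test was made, and edgeR 4.0.16 was used only for TMM factors. A spot can hold several cells, so no doublet caller was run. The ratios were checked on simulated counts. Named genes were the 15 highest and 8 lowest in both sections, the 10 highest and 10 lowest between genotypes, the 5 largest differences of ratio each way, and up to 4 per list (the 2 with most UMIs and the 2 with the largest ratio); mitochondrial, ribosomal, haemoglobin, sex-linked and unnamed genes were left out of the first 3 groups. Some genes that this rule names are not reported here. All other genes were named after their values were seen, most of them from the lists. There were 21 alternatives; thinning to 10000 UMIs used seed 7. Python 3.11.15, numpy 2.4.6, scipy 1.17.1 and pandas 2.3.3 were used.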

Additional observations from a re-analysis of the deposited data

Results flagged for a closer look

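Clu and the MHC class II genes lay on opposite sides of the median gene in the endocardial spots of the hearts, and the difference was not tested. Clu had a log2 ratio of endocardial over other spots of -0.75 in PD1 KO and 0.69 in PD1 Het, and with 100 spots per section or with spots ranked by Pcp4 and Cntn2 alone the PD1 KO ratio was above 0. The 7 MHC class II genes, which present antigen on macrophages and dendritic cells, had -0.64 in PD1 KO and 0.85 in PD1 Het, from 64.8 against 101 CPM in PD1 KO and 67.9 against 34.4 CPM in PD1 Het, or 80 and 52 UMIs in the endocardial spots of PD1 KO and PD1 Het. The median endocardial spot held 0 UMIs of them in both sections.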

How the results depend on the processing

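Counts at 25 spots per section were 316 genes higher and 216 lower in PD1 KO against PD1 Het endocardial spots. At 100 spots, 129 were higher in endocardial spots of PD1 Het and 131 higher in PD1 KO against PD1 Het. Thinned to 10000 UMIs, 201 were lower in PD1 KO against PD1 Het. Ranked by Pcp4 and Cntn2 only, 51 were higher in endocardial spots of PD1 KO, 130 in PD1 Het and 34 in both. Without subtracting the median gene, 322 were higher in endocardial spots of PD1 Het and 74 lower in PD1 KO against PD1 Het. With TMM factors, which moved the median gene by -0.11 in PD1 KO and -0.17 in PD1 Het, 116 were higher in endocardial spots of PD1 Het. With at least 100 UMIs per gene, 455 were higher in endocardial spots of PD1 KO, 929 in PD1 Het and 271 in both, and 1138 were higher and 868 lower in PD1 KO against PD1 Het; with no minimum beyond 1 UMI these were 1501, 2310, 905, 2265 and 2238. The other 13 alternatives left all 5 counts within 1.5 times of the main ones.

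Ratios in PD1 KO changed sign when spots were ranked by Pcp4 and Cntn2 only, to 0.74 for Clu, 0.82 for Nppa, 0.34 for the median of trabecular genes and 0.18 for that of natriuretic genes, and to -0.37 for Hba-a1, -0.53 for Hbb-bs, -0.44 for Hbb-bt and -0.41 for the red cell median. Ranked without Vwf, the values were -0.35, -0.39, -0.21 and -0.34 for Hba-a1, Hbb-bs, Hbb-bt and the red cell median. Clu was at 0.041 with 100 spots. Lrtm1, PD1 KO over PD1 Het, was at -0.088 after thinning and -0.14 ranked by Pcp4 and Cntn2. The causes were not tested. Of 302 values under 21 alternatives, 5126 stayed within counting error, 1201 moved and 15 changed sign. No paired analysis was possible because each genotype had 1 section. Depth limits scarce genes, most of all in PD1 Het.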

Other observations

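Further genes, chosen after their values were seen, passed the fold in both sections. Cd9, a tetraspanin, had 1.09 (0.85 to 1.31) in PD1 KO and 1.49 (1.19 to 1.77) in PD1 Het, and Fabp5, a fatty acid binding protein, 1.07 (0.95 to 1.18) in PD1 KO and 1.61 (1.48 to 1.74) in PD1 Het, where the capillary gene Fabp4 lay below 0. Mdk, the heparin-binding growth factor midkine, had 0.92 in PD1 KO and 1.54 in PD1 Het. Mgp, an inhibitor of calcification, had 1.04 in PD1 KO and 1.26 in PD1 Het. Of endothelial genes, Mmrn2 had 1.06 in PD1 KO and 1.20 in PD1 Het, the scavenger receptor Stab1 0.90 in PD1 KO and 0.94 in PD1 Het, the chemokine receptor Ackr3 0.96 in PD1 KO and 0.85 in PD1 Het, and Heg1, a junction receptor needed for heart growth, 0.65 in PD1 KO and 1.16 in PD1 Het.

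The remaining lists gave summed ratios of 0.56 (0.49 to 0.63) in PD1 KO and 0.71 (0.61 to 0.80) in PD1 Het for genes of endothelial to mesenchymal transition. Of the 3 with enough UMIs, Vim had 0.80 in PD1 KO and 1.05 in PD1 Het, and Tgfbr2 0.75 in PD1 KO and 0.93 in PD1 Het. The third, Cdh2, lay below 0, with -0.08 (-0.26 to 0.10) in PD1 KO and -0.29 (-0.55 to -0.03) in PD1 Het. Vim gave 1005 of the 1755 endocardial UMIs of the list in PD1 KO and 638 of 1040 in PD1 Het. Valve and cushion genes together had 0.75 (0.66 to 0.84) in PD1 KO and 1.05 (0.92 to 1.18) in PD1 Het. Dpt, also a gene of fibroblasts, gave 571 of their 1050 endocardial UMIs in PD1 KO and 367 of 567 in PD1 Het. Of the 14 members with fewer UMIs, 2 had intervals above 0 in both sections. A further 1, Cilp, had intervals below 0 in both, and 11 had neither. The share over all scarce genes is not given here. Venous genes without Vwf had 0.52 (0.32 to 0.72) in PD1 KO and 0.63 (0.36 to 0.88) in PD1 Het, and lymphatic genes 0.55 (0.35 to 0.73) in PD1 KO and -0.18 (-0.49 to 0.13) in PD1 Het. Basement membrane genes had 0.08 (0.04 to 0.11) in PD1 KO and 0.08 (0.02 to 0.13) in PD1 Het, and calmodulin-related genes other than Pcp4 0.00 (-0.08 to 0.08) in PD1 KO and -0.04 (-0.16 to 0.08) in PD1 Het. Nerve genes had 0.94 (0.48 to 1.37) in PD1 KO and 1.11 (0.49 to 1.67) in PD1 Het, mainly from Dbh, with 30 against 261 UMIs in PD1 KO and 26 against 110 UMIs in PD1 Het. Platelet genes had 0.58 (0.19 to 0.94) in PD1 KO and -0.06 (-0.58 to 0.41) in PD1 Het, and mast cell genes 0.50 (0.13 to 0.85) in PD1 KO and -1.14 (-1.85 to -0.52) in PD1 Het. Trabecular muscle genes had -0.63 (-0.69 to -0.57) in PD1 KO and -0.22 (-0.34 to -0.10) in PD1 Het. Nppa gave 47592 of the 61558 UMIs of that list in other spots of PD1 KO and 4425 of 10551 in PD1 Het. Its 3 genes with enough UMIs were Nppa and Nppb, below 0, and Kcne1, with 0.30 in PD1 KO and 0.04 in PD1 Het. Compact muscle genes had -0.21 (-0.25 to -0.17) in PD1 KO and -0.34 (-0.39 to -0.30) in PD1 Het. Tnni3 gave 5226 of their 5657 endocardial UMIs in PD1 KO and 3851 of 4098 in PD1 Het. Fetal sarcomere genes had -0.34 (-0.39 to -0.30) in PD1 KO and -0.45 (-0.52 to -0.39) in PD1 Het.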
